A study of Mus musculus with 21 samples.

Results

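Contacts of 3' HS-1, a hypersensitive site at one edge of the mouse beta-globin locus, were compared between fetal liver and fetal brain. They were measured by 4C-seq, in which chromatin is fixed, cut and ligated, and the DNA joined to 1 chosen fragment, the viewpoint, is amplified by inverse PCR and sequenced. The comparison rests on 2 of the 21 libraries of the series, picked by the viewpoint named in their titles and by their tissue label. The fetal liver library and the fetal brain library were both made from C57BL/6 fetuses at 14.5 dpc, fixed with 2% formaldehyde for 10 minutes and cut with DpnII and then Csp6I. Each suspension pooled 10 to 12 embryos, and an aliquot for fixation held the equivalent of 2 livers or of 4 brains. A further 5 libraries from the same locus and age serve for comparison: Hbb-b1 (its promoter) and HS-2 in both tissues, and HS-62 in liver. Each tissue had 1 library per viewpoint, so no difference below has a replicate check, and no test was run. In whole tissue, a contact in fewer cells and a weaker contact in all cells cannot be told apart.

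The beta-globin genes encode the beta-like chains of haemoglobin and are switched on in red cell precursors, which fill the liver in fetal life and are not a cell type of the brain. Their main enhancer, the locus control region, is a row of hypersensitive sites of which HS-2 is one, and it is known to touch the active globin promoter in erythroid cells. 3' HS-1 and HS-62 lie outside the genes on opposite sides and are known as binding sites of CTCF, a DNA-binding protein often found at the ends of chromatin loops. Olfactory receptor genes, which are used in the nose, flank the cluster on both sides. In the gene order of RefSeq (GRCm38.p6), Olfr69, Olfr68 and Olfr67 precede Hbb-bt and Hbb-bs, the adult beta-globin genes of this strain's reference, which are followed by the pseudogene Hbb-bh3, then Hbb-bh2, Hbb-bh1 and Hbb-y, and Olfr66 comes next. Hbb-bh1 and Hbb-y are embryonic genes, used before the liver takes over red cell formation.

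The promoters facing this viewpoint are shown because they belong to the globin genes on the compared side, and because a fragment can be captured only between restriction sites. Each line holds the 250 bases before the annotated start, minus strand, from RefSeq GRCm38.p6: Hbb-bt at chr7:103813924-103814173, Hbb-bs at chr7:103827929-103828178 and Hbb-y at chr7:103853208-103853457. Capitals mark CACCC and CCAAT, boxes known from globin promoters, and GATC and GTAC, the letters cut by DpnII and Csp6I, on either strand.
Hbb-bt: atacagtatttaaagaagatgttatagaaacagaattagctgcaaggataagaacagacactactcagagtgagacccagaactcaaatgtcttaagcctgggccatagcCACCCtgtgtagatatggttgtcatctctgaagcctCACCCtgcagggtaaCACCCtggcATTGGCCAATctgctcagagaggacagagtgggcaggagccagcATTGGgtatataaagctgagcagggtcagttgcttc
Hbb-bs: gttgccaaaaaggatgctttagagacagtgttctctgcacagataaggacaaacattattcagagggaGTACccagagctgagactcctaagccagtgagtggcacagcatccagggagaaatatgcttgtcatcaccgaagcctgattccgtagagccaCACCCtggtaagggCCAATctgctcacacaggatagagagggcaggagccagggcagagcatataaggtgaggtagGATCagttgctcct
Hbb-y: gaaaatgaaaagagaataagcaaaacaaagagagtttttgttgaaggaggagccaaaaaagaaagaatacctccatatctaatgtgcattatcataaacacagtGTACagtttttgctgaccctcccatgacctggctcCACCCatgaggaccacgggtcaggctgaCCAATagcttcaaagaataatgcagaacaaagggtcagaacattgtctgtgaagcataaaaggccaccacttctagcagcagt
CACCC stood 3 times in the Hbb-bt window, and 1 time each in those of Hbb-bs and Hbb-y. CCAAT stood 3, 1 and 1 times in the same order, and its 2 copies at 80 and 75 bases before the Hbb-bt start abut each other on opposite strands. GATC was found in the Hbb-bs window alone, 14 bases before the start, and GTAC in those of Hbb-bs and Hbb-y. Of all 32851 mouse promoter windows of this length, 52% hold CACCC, 33.8% CCAAT, 41.9% GATC and 31.5% GTAC, so a match in itself is common. The table has 4 entries for the 6 beta-like entries of the order above, and the fourth, Hbb-bh2, holds none of these letters. These coordinates cannot be set against the mm9 positions used below, and which gene the title Hbb-b1 stands for in this reference is not stated in the labels.

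The deposited profiles gave a smoothed contact signal every 1000 bp of mm9 chromosome 7, for 48 window sizes, with a middle, a higher and a lower value each. The 5 kb window is used unless another is named. Both libraries peaked at the viewpoint: the highest middle value lay at 110944000 in liver and at 110941000 in brain, and 3' HS-1 was placed between them at 110942500. The signal carries no marker of cell type, so the tissue labels could not be checked from it. By the same rule the Hbb-b1 promoter stood at 110977000, HS-2 at 111006000 and HS-62 at 111058000, which is 34.5, 63.5 and 115.5 kb from 3' HS-1 on one side, the globin side. Relative signal below is in units of each library's own mean signal over the shared positions, and log2 values are liver over brain of relative signal plus 0.1.

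The 2 libraries differed in how their signal was filled in, which touches every ratio. Of 376 shared positions beyond 10 kb from the viewpoint, 15 were empty in liver, all of them empty in brain too, and 25 were empty in brain. Brain was listed at 0 even 3.5 kb from the viewpoint, at 110946000, between neighbours at 13.2 and 9.64 relative signal, so empty positions were treated as gaps. At the 2 kb window 21.4% of positions were empty in liver and 39.8% in brain, and at 10 kb none was. The remaining 351 positions, 110803000 to 111197000, were compared, and their mean deposited signal was 0.0284 in liver and 0.0295 in brain. Liver also held few distinct levels: its 5 commonest values filled 191 of the 376 positions, 50.8%, against 20 positions, 5.32%, for the 5 commonest in brain. Their part in the results was not tested. No label or file used here gives the sequencing depth, and the title of the liver library carries a longer number than that of the brain library, whose meaning is not stated.

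Over all 351 positions, liver was past 2-fold above brain at 84 (23.9%) and past 2-fold below it at 45 (12.8%). Of the 84, 31 (36.9%) had one of the 5 commonest liver values, as had 28 of the 45 (62.2%). Among all 351 positions 187 (53.3%) had one. The split depends on the scale: with each library divided by its median, all log2 values fell by 0.39, and 54 positions were past 2-fold above and 80 below. Differences between stretches of the locus do not depend on it. The lower column of liver exceeded the higher column of brain at 13 positions (3.7%), and the reverse held at 0 positions (0%), or at 6 in the 2 kb window.

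A technical pair of the same series shows how large such counts can be without a change of tissue. The Hba-a1 promoter, an alpha-globin viewpoint, was profiled in liver from the full template and from 1/16 of it. Across 324 positions, the full template was past 2-fold above the dilution at 6 (1.85%) and past 2-fold below it at 214 (66%). The bands were apart at 0 positions (0%) with the full template higher and at 46 (14.2%) with it lower. The SD of its log2 ratio was 0.93, against 1.04 for liver over brain from 3' HS-1. From the 13 kb window upwards the technical pair was the more spread of the 2, with 0.93 against 0.85 at 20 kb and 0.96 against 0.76 at 49 kb. The calls of the technical pair went almost wholly in 1 direction, and it comes from another viewpoint. Its counts therefore do not measure scatter at single positions alone. A single position past 2-fold is still within what 2 libraries of 1 tissue gave. The results below are read over stretches and over window sizes. No stretch was compared in the technical pair, so its spread over stretches is unknown.

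The 5 stretches bounded by the landmarks did not move alike. The DNA below 3' HS-1, away from the globin genes, held 27.5% of the liver signal and 52.9% of the brain signal. From HS-2 to HS-62, where the control region and its upstream flank lie, the shares were 26.6% in liver and 10.0% in brain, and beyond HS-62 they were 23.8% and 10.2%. The 2 stretches nearest the viewpoint on the globin side were more alike, with 13.9% in liver and 16.3% in brain between 3' HS-1 and Hbb-b1, and 8.27% and 10.6% between Hbb-b1 and HS-2. Liver contacts thus lay farther towards and past the control region, and brain contacts lay more on the olfactory receptor side below the viewpoint.

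**Figure D1:**
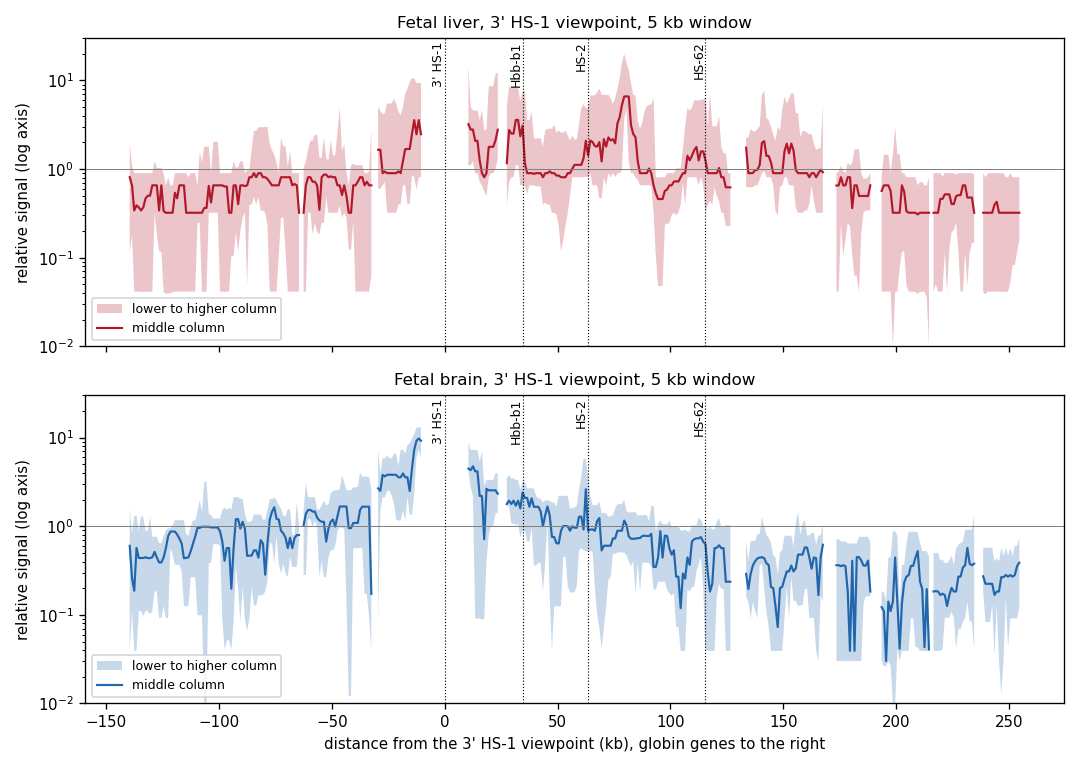
Relative signal (log axis) of the fetal liver library (upper panel) and the fetal brain library (lower panel) against distance from 3' HS-1 in kb, 5 kb window. Lines are the middle column, shading spans the lower to the higher column, dotted lines mark the viewpoints, and gaps are positions within 10 kb or empty in a library. Liver has a peak of 6.58 near 81.5 kb where brain lies at 0.771, and brain is highest just below the viewpoint.

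In the lower flank, relative signal averaged 0.760 in liver and 1.46 in brain, a log2 ratio of -0.86. Liver was below brain at 95 positions and above it at 32. It was past 2-fold below at 41, and past 2-fold above at 3. The shortfall was steepest near the viewpoint. At 10 to 20 kb liver averaged 2.18 and brain 5.71, a log2 ratio of -1.35, and at 20 to 30 kb 1.06 in liver and 3.52 in brain, a log2 ratio of -1.65. From 30 to 50 kb the ratio was -0.93, with 0.643 in liver and 1.32 in brain. Of the 44 positions of this flank past 2-fold in either direction, 27 had one of the 5 commonest liver values. Among all 351 positions 187 had one. Farther out the ratio was -0.54 at 50 to 70 kb, -0.16 at 70 to 100 kb and -0.41 at 100 to 140 kb. Liver stayed below brain at all 20 positions from 110913000 to 110932000.

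Between 3' HS-1 and the Hbb-b1 promoter, liver averaged 2.21 and brain 2.60 over 22 positions, a log2 ratio of -0.22. The stretch was uneven: at 10 to 20 kb liver had 1.86 and brain 3.21, a log2 ratio of -0.76, and at 20 to 30 kb the values were 2.13 in liver and 2.21 in brain. The sign of the whole stretch turned once distance was modelled or the first 20 kb were left out. Between Hbb-b1 and HS-2, the stretch that runs from the adult gene towards the control region, liver averaged 1.00 and brain 1.28 over 29 positions, a log2 ratio of -0.33, with 0 positions past 2-fold above and 2 below. Of the windows tried, 39 kept that sign and 9 of the 48 turned it.

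From HS-2 to HS-62 the order was the other way round. Relative signal averaged 1.79 in liver and 0.678 in brain over 52 positions, a log2 ratio of 1.28. Liver lay above brain at 49 of the 52, past 2-fold at 28, and past 2-fold below at 0. The log2 ratio of the stretch fell to 0.88 when divided by a decay with distance over both sides and to 0.35 with a decay on each side alone. Without the first 50 kb it was 0.71. The change came close to HS-2: the bin at 50 to 70 kb had 1.32 in liver and 1.05 in brain, a log2 ratio of 0.30, and the bin at 70 to 100 kb had 2.12 in liver and 0.722 in brain, a log2 ratio of 1.44. From 111006000, the position of HS-2, to 111037000, liver exceeded brain at 32 positions in a row.

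From HS-62 outwards, liver averaged 0.690 and brain 0.296, a log2 ratio of 1.00. Liver was above brain at 91.7% of positions and below it at 10. The excess shrank to 0.25 when divided by a decay with distance over both sides and to 0.046 with a decay on each side alone, to 0.49 without the first 50 kb and to 0.58 with 0.5 added in place of 0.1. At the settings used throughout, liver was past 2-fold above brain at 52 (43%), and past 2-fold below at 0. Of those 52, 25 had one of the 5 commonest liver values, against 3 of the 28 between HS-2 and HS-62 and 187 of all 351. By distance from 3' HS-1, the log2 ratio was 1.09 at 100 to 140 kb, a bin that also holds positions short of HS-62, 1.42 at 140 to 180 kb, 0.69 at 180 to 220 kb and 0.47 at 220 to 260 kb. Brain signal in these bins was low, between 0.431 and 0.238, so part of the ratio depends on the level of 0.1 added to both.

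Set against the lower flank, which removes the choice of scale, the log2 ratio was higher by 2.14 from HS-2 to HS-62 and by 1.86 beyond HS-62. It was higher by 0.64 between 3' HS-1 and Hbb-b1, and by 0.53 between Hbb-b1 and HS-2. The step from the stretch before HS-2 to the one after it was 1.61. With each library divided by its median, the ratio was 0.90 from HS-2 to HS-62, 0.61 beyond HS-62 and -1.25 in the lower flank. The same scaling gave -0.29 at Hbb-b1, 0.04 at HS-2 and 0.65 at HS-62.

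**Figure D2:**
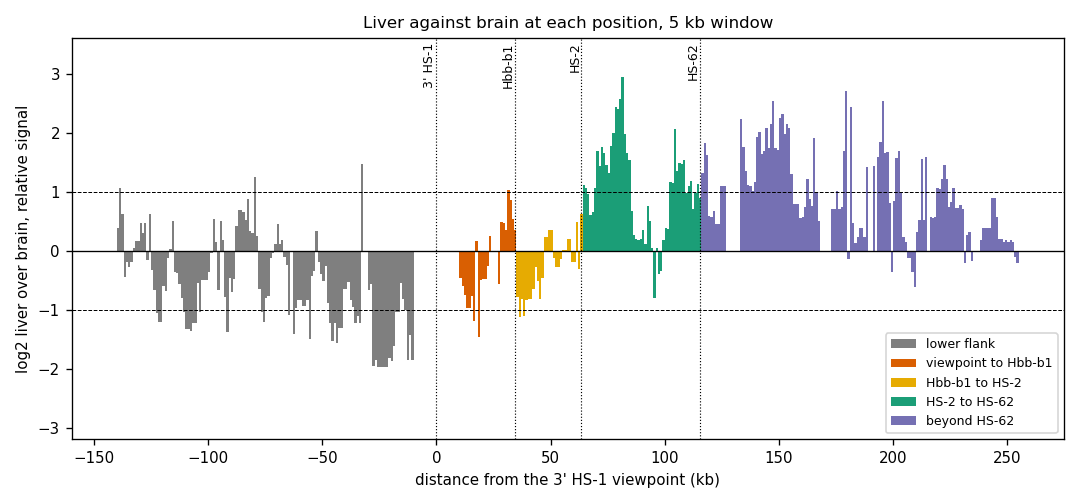
Log2 liver over brain of relative signal at each of the 351 positions, against distance from 3' HS-1 in kb, 5 kb window, coloured by stretch. Dashed lines mark 2-fold, and bars point down across most of the lower flank, straddle 0 between the viewpoint and HS-2, and point up at 49 of 52 positions from HS-2 to HS-62 and at all but 10 positions beyond.

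The decline of signal with distance differed in the same way on both sides. Over 10 to 100 kb the slope of log2 signal on log2 distance was -0.18 in liver and -0.80 in brain on the globin side, and -0.49 in liver and -1.08 in brain on the lower side. Liver thus had a flatter slope on both sides. Its globin side was not even: it averaged 1.86 at 10 to 20 kb and 1.32 at 50 to 70 kb. It then rose to 2.12 at 70 to 100 kb, where the peak near 81.5 kb lies, and was 1.03 at 100 to 140 kb. Over 10 to 140 kb the slope on this side was -0.26 in liver and -0.90 in brain. At equal distances, from 10 to 139.5 kb, 66% of the liver signal and 42.3% of the brain signal lay on the globin side. Within 10 to 50 kb the shares were 58.7% in liver and 40.5% in brain, and within 50 to 139.5 kb they were 70.4% and 45.2%. In each of the 48 windows liver had the larger share on the globin side, by 17 to 24.6 percentage points.

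Next, the landmarks themselves were compared, each as the mean over 11 positions, 5 kb to either side. At the Hbb-b1 promoter (110972000 to 110982000) liver had 2.04, between a mean lower column of 0.753 and a mean higher column of 6.13. Brain had 1.90, between 0.857 and 3.02. The log2 ratio of 0.09 hides a step at the promoter: liver held 2.34 to 3.59 at the 6 positions from 110972000 to 110977000, where brain held 1.59 to 2.40. At the 5 positions from 110978000 to 110982000 liver held 0.884 to 1.17 and brain 1.66 to 2.09. Liver was above brain at all 6 of the first and below it at all 5 of the second. Among the second, the liver value at 110979000, 110980000 and 110981000 was one of its 5 commonest, 0.900. The sign of the mean turned in 36 of the 48 windows.

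At HS-2 (111001000 to 111011000), an enhancer of the control region, liver averaged 1.63, between 0.745 and 5.56, and brain 1.19, between 0.393 and 2.94. The log2 ratio was 0.43, with liver above brain at 8 positions and below at 3. The brain value at 111005000 reached 2.62, the highest of the 11, and liver had 2.09 there. The ratio was positive in 47 windows and -0.24 in the 2 kb window. Divided by a decay with distance it was 0.084 (both sides) or -0.38 (each side alone), and without the first 50 kb it was -0.18, so its sign is not settled.

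At HS-62 (111053000 to 111063000), the far CTCF site, liver averaged 1.23, between 0.583 and 5.08, and brain 0.552, between 0.171 and 1.03. The log2 ratio was 1.03, and liver was above brain at all 11 positions, past 2-fold at 6. The ratio was positive in every window, from 0.70 to 1.16. It lay between the ratios of the DNA around it, which were 1.28 on the near side and 1.00 on the far side. Divided by a decay with distance fitted to the globin side alone, it was 0.03. Without a decay model the 3 landmarks ranked HS-62, HS-2 and Hbb-b1 by ratio, which is also their order by distance from 3' HS-1. Divided by a decay over both sides, the order was HS-62 (0.68), Hbb-b1 (0.33) and HS-2 (0.084). With a decay on each side alone it was HS-62 (0.030), Hbb-b1 (0.026) and HS-2 (-0.38).

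Maxima were then sought in signal over the level expected at the same distance (observed over expected, O/E) from a monotone decay fitted to both sides of each library. Each O/E compares means over the positions within 5 kb to either side, whereas relative signal is that of the position itself. The highest in liver was 111024000, in the control region side of the locus 18 kb beyond HS-2, with O/E 2.99 against 1.08 in brain. Relative signal there was 6.58 in liver, between 1.23 and 13.2, and 0.771 in brain, between 0.400 and 1.44, a log2 ratio of 2.94. It was also the position with the largest excess of liver. The run past 2-fold around it covered 16 positions, 111012000 to 111027000, with 3.36 in liver and 0.763 in brain. Its bands were apart at 111022000 and 111023000.

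The other liver maxima were smaller. At 110972000, 5 kb short of the Hbb-b1 promoter, liver had O/E 1.66 and brain 0.948, over 8 positions because empty ones lie beside it. Liver was above brain at 110972000 in 15 of 48 windows and past 2-fold in 0, with log2 ratios from -0.67 to 0.94. At 111053000, 5 kb short of HS-62, it was 1.61 in liver and 0.918 in brain, with relative signal 1.64 and 0.715. At 111081000, 23 kb beyond HS-62, it was 1.55 in liver and 0.963 in brain. The fifth, 110931000, lies 11.5 kb from the viewpoint on the lower side, had O/E 1.06 in liver against 1.24 in brain, and held less signal in liver, 3.57, than in brain, 9.79.

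Brain had 3 maxima by the same rule, none above O/E 1.25. They lay at 110932000 with 1.06 in liver and 1.25 in brain, at 110980000 with 1.09 in liver and 1.16 in brain, and at 110884000 with 0.558 in liver and 1.15 in brain. Of the 5 liver maxima, 2 had a brain maximum within 10 kb, namely 110972000 at 8 kb and 110931000 at 1 kb. The match at 1 kb is at the edge of the viewpoint peak. Averaged over 5 kb to either side, the brain profile at its maxima thus reached at most 1.25 times the level for its distance. The liver profile reached 2.99 times. Both levels come from a decay over both sides, on which liver had O/E 0.672 in the lower flank and 1.72 from HS-2 to HS-62. At 70 to 100 kb on the globin side, the log2 ratio was 1.01 after that decay and 0.50 with a decay on each side alone. Single positions can stand higher: brain held a relative signal of 2.62 at 111005000, close to HS-2, where its mean over the 10 kb was 1.19.

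Taking positions at least 20 kb apart, the largest excesses of liver after 111024000 were at 111122000, 111090000, 111047000 and 111145000. The liver value at each of these was one of its 5 commonest, which that at 111024000 was not. At 111122000 liver had 0.809 and brain 0.0392, a log2 ratio of 2.71, but brain was near its lowest level and an empty position lay 7 kb away. At 111090000 liver had 0.900 and brain 0.0728, a log2 ratio of 2.53, with bands apart. This position lies in the longest run past 2-fold, 23 positions from 111076000 to 111098000, where liver averaged 1.29 and brain 0.302. Of the 13 positions with bands apart, 11 lie in that run.

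With the same spacing, the largest deficits of liver were at 110918000, 110897000, 110961000, 110851000 and 110821000. All but 110961000 lie in the lower flank. The liver value was one of its 5 commonest at 110918000, 110961000 and 110821000, and was not at 110897000 and 110851000. At 110918000, 24.5 kb below the viewpoint, liver had 0.900, between 0.322 and 5.50, and brain 3.82, between 2.52 and 5.84, a log2 ratio of -1.97. The run past 2-fold around it covered 12 positions, 110915000 to 110926000, with 1.06 in liver and 3.72 in brain. Nearest the viewpoint, the 4 positions from 110929000 to 110932000 had 3.02 in liver and 8.88 in brain. Bands were apart at none of these lower positions in the 5 kb window.

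How far each difference depends on smoothing was read from all 48 windows, 2 to 49 kb. Windows of 1 profile share the same fragments and are not independent. The lower flank was below 0 in every window, from -0.97 to -0.73, and so was the stretch from the viewpoint to Hbb-b1, from -0.42 to -0.10. HS-2 to HS-62 was above 0 in every window, from 0.73 to 1.28, and beyond HS-62 likewise, from 0.97 to 1.09. The excess between HS-2 and HS-62 was largest at 5 kb and shrank with wider windows, whereas the one beyond HS-62 stayed within that range. Pearson's correlation of the 2 profiles across positions was 0.39 at 2 kb and 0.73 at 47 kb, and both profiles share the decay with distance.

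**Figure D3:**
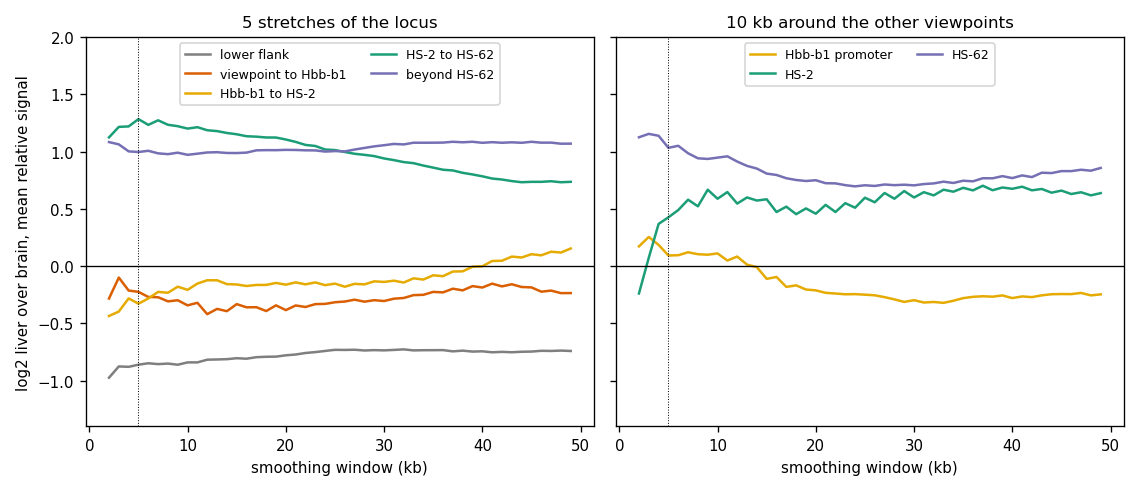
Log2 liver over brain of mean relative signal against smoothing window in kb, for the 5 stretches (left panel) and for 10 kb around the other 3 viewpoints (right panel). The dotted line marks the 5 kb window. HS-2 to HS-62 and beyond HS-62 stay above 0 throughout, the lower flank stays below 0, and Hbb-b1 crosses 0.

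Single positions behaved differently under smoothing. At 111024000 liver had 3.95 and brain 0.794 at 10 kb, 2.43 and 0.731 at 20 kb, and 1.22 and 0.708 at 49 kb, so the log2 ratio was 2.18, 1.61 and 0.71 at these windows. It could not be read at 2 and 3 kb, where a library was empty. Liver was higher in all 46 windows that gave a value, past 2-fold in 36. At 111090000 liver had 1.22 and brain 0.341 at 20 kb, a log2 ratio of 1.58, and the ratio passed 2-fold in all 48 windows. At 110918000 the ratio was past 2-fold in all 48 windows too, from -2.06 to -1.54. The liver value there is the commonest liver value, 0.0256 of deposited signal, and it recurs unchanged at that position in 35 of the 48 windows, so the windows carry little separate information. At 111090000 the 5 kb value of liver is the same 0.0256, and it recurs there in 5 windows.

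Of all 351 positions, 40.2% were higher in liver in every window that gave a value and 17.7% were lower. From HS-2 to HS-62 this held upwards for 41 of 52 and downwards for 0. Beyond HS-62 it held upwards for 96 positions (79.3%) and downwards for 1. In the lower flank it held downwards for 49 positions (38.6%) and upwards for 3. Positions past 2-fold in every window were fewer: 19 above brain, at 111076000 to 111080000 and 111083000 to 111096000, and 8 below it, at 110916000 to 110921000, 110923000 and 110925000.

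**Figure D4:**
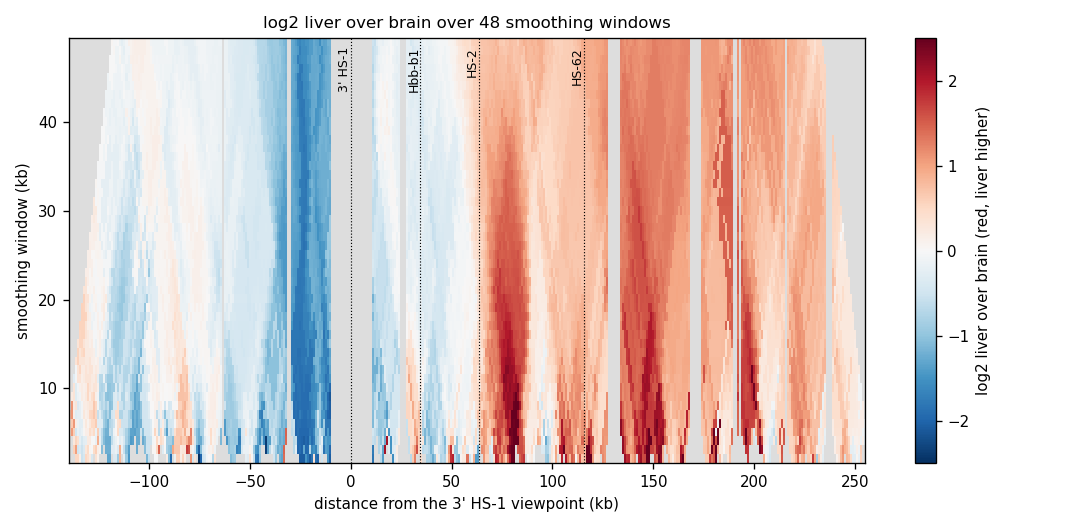
Log2 liver over brain (colour, red for liver higher) by distance from 3' HS-1 in kb and smoothing window in kb. Grey marks positions within 10 kb of the viewpoint, empty in a library or outside a window's reach. The blue band just below the viewpoint and the red block at 140.5 to 153.5 kb run through all windows, while the red block near 81.5 kb fades as windows widen.

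The other viewpoints of the locus show which of these differences were seen from elsewhere, each library scaled to its own mean. The DNA below 3' HS-1 was lower in liver from every viewpoint that had both tissues, with log2 ratios of -0.86 from 3' HS-1, -2.35 from Hbb-b1 and -1.80 from HS-2. Beyond HS-62 the signs parted: the ratio was 1.00 from 3' HS-1, -1.21 from Hbb-b1 and -1.60 from HS-2. From HS-2 to HS-62 the ratio of the means was 1.28 from 3' HS-1, with 28 of 52 positions past 2-fold above brain and 0 below. It was 1.45 from Hbb-b1, where 18 of the 52 were past 2-fold above and 24 below. From HS-2 itself it was -0.02, with 4 of 42 past 2-fold above and 26 below. The difference between viewpoints was not tested. These libraries also had 13 and 27 empty positions in liver and 23 and 26 in brain, for Hbb-b1 and HS-2 in that order.

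The surroundings of 111024000, averaged over 10 kb, were higher in liver from 3' HS-1 (3.84 in liver, 0.843 in brain), from Hbb-b1 (5.39 in liver, 1.40 in brain) and from HS-2 (7.46 in liver, 5.07 in brain). From HS-2, 6 of the 11 positions were higher in liver. From HS-62, which was profiled in liver only, they held 4.31 at a distance of 34 kb, and 3' HS-1 held 2.63 at 115.5 kb. HS-2 held 2.30 at 52 kb and Hbb-b1 1.95 at 81 kb, both less than 3' HS-1 though nearer. The surroundings of 111081000 had a log2 ratio of 1.59 from 3' HS-1, against -0.86 from Hbb-b1 and -0.97 from HS-2. HS-62 as a target gave 1.03 from 3' HS-1, -1.01 from Hbb-b1 and -0.79 from HS-2.

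Pairs read from both ends did not match in each case. Hbb-b1 and 3' HS-1 gave a log2 ratio of 0.09 from 3' HS-1 and -1.34 from the Hbb-b1 promoter, where the site had 0.822 in liver and 2.24 in brain. That mean is uneven: liver was above brain at 2 of its 9 positions. These lay 1.5 and 2.5 kb from the placed 3' HS-1, with a log2 ratio of 0.96 at each. HS-2 and 3' HS-1 gave 0.43 from 3' HS-1 and 0.28 from HS-2, where the site had 1.07 in liver and 0.857 in brain. Seen from HS-2, liver was above brain at 4 of the 9 positions. Their log2 ratios ran from -1.35 at 4.5 kb to 1.96 at 1.5 and 2.5 kb from the placed site. Each library is scaled to its own mean, and the decay with distance is left in these values.

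**Figure D5:**
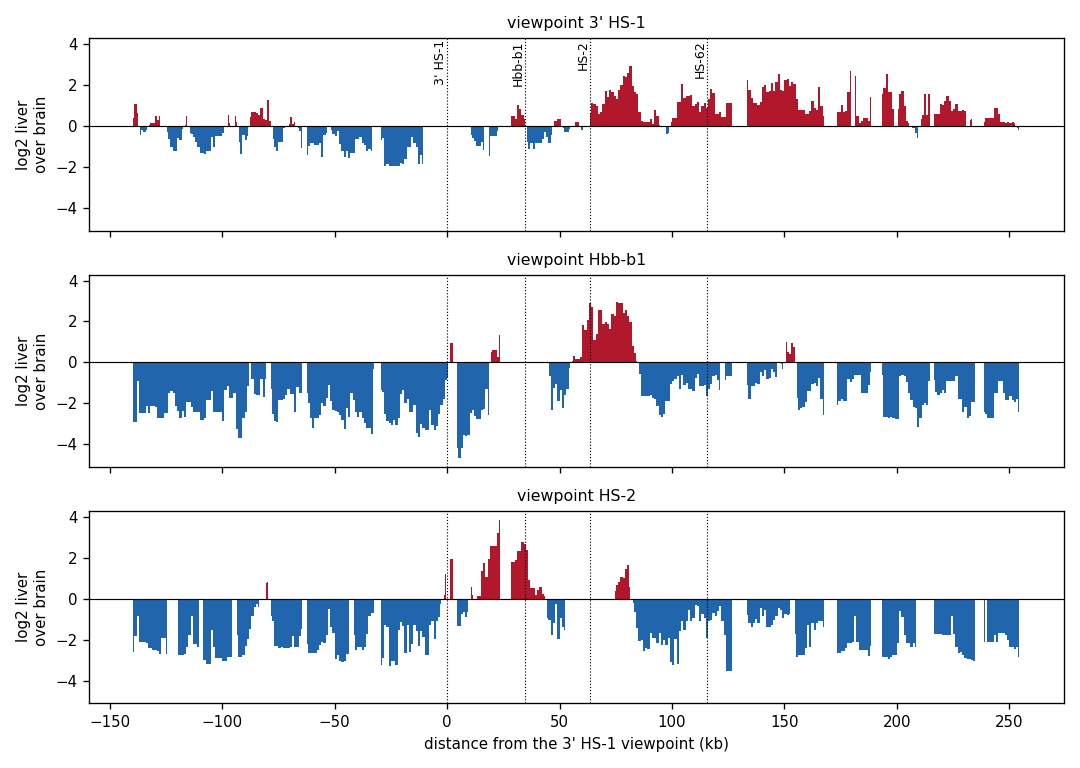
Log2 liver over brain of relative signal from 3' HS-1 (top), the Hbb-b1 promoter (middle) and HS-2 (bottom), against distance from 3' HS-1 in kb, 5 kb window. Red bars are higher and blue bars lower in liver. The stretch just short of 81.5 kb is red from each viewpoint, and beyond HS-62 bars are mostly red from 3' HS-1 and mostly blue from the other two.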

How the data were processed

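Contacts of 3' HS-1 were read from the signal the authors deposited for 1 fetal liver and 1 fetal brain library. The files have no header. They hold a position and, for 48 smoothing windows, 3 columns, and window sizes of 2 to 49 kb were read from the unfilled ends of each column. The build was mm9 per the submitters' processing notes. The sources used here name no aligner, filter or depth, nor the quantile levels of the outer columns, so no counting interval was computed. Each library was scaled to its mean signal outside the 10 kb around the viewpoint, and a pseudocount of 10% of that mean was added before taking log2. Called means past 2-fold. Positions where all 3 columns were under 1e-09 were left out, which was decided after seeing the data. O/E used isotonic regression. Named positions were the other viewpoints, the 5 stretches they bound, up to 5 O/E maxima per library at least 20 kb apart within its top 25% of signal, and up to 5 largest differences per direction, also 20 kb apart. Stretches, lists and positions were chosen with earlier results of these data known. The ratio calculation was tested on simulated data. Alternatives changed the window, scaling, decay, pseudocount, distance left out and target width. Python 3.11.15, numpy 2.4.6, pandas 2.3.3, scikit-learn 1.9.0 and matplotlib 3.10.9 were used.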

Additional observations from a re-analysis of the deposited data

How the results depend on the processing

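No paired analysis was possible because each tissue had 1 library. HS-2 to HS-62 stayed above 0 in all 12 alternatives (0.35 to 1.38), the lower flank below 0 in all 11, Hbb-b1 to HS-2 below 0 in all 12, and the globin-side share kept liver higher by 19.4 to 25.2 points in all 6. At 2 kb, bands were apart at 6 positions in each direction and HS-2 was -0.24. At 10 kb, 29 positions were past 2-fold lower. At 20 kb, bands were apart upwards at 3 positions and Hbb-b1 was -0.21. Median scaling gave 54 higher, 80 lower and -0.29 at Hbb-b1. A decay over both sides gave 35 higher and 0.61 from the viewpoint to Hbb-b1. A decay on each side alone gave 13 higher, 13 lower, 0.0078 from the viewpoint to Hbb-b1, 0.046 beyond HS-62, -0.38 at HS-2 and 0.030 at HS-62, and no value for the lower flank, since that whole side is the fit. A pseudocount of 50% gave 36 higher and 16 lower. Without the first 20 kb, viewpoint to Hbb-b1 was 0.014 and Hbb-b1 -0.14. A target 10 kb to either side gave -0.045 at Hbb-b1. Leaving out 50 kb, chosen after seeing the data, gave 48 higher and -0.18 at HS-2. Keeping empty positions, also added then, changed no direction. The causes were not tested. Depth and replicate spread are unknown, and empty positions limit the windows under 10 kb, the 5 kb window included.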
